A study of Mus musculus with 6 samples.

Results

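The Rab GTPases are small GTP-binding proteins that sort traffic between the membranes of the cell. They were taken here as every row of the expression table whose gene symbol is Rab, a number and at most 1 letter and 1 further digit, which leaves out the genes of Rab-interacting proteins. That rule found 59 of 34745 genes, and 48 of them had enough counts to be tested. The family was chosen by symbol, and Rab22a was selected on the difference between its counts in these same 6 libraries. The values of the Rab genes in that contrast are therefore a description, with no p-value printed. Where a Rab gene is said to be called or not called, this is its side of the threshold in the fit over all genes, and it supports nothing further.

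The RNA came from liver sinusoidal endothelial cells (LSECs), the fenestrated endothelium of the liver sinusoid. One group was Tgfbr2f/f, below f/f, which carries floxed alleles of the gene of the type II TGF-beta receptor and was titled WT. The other was labelled Tgfbr2 ECKO, an endothelium-specific knockout of Tgfbr2, and the design text names the f/f mice as its littermates. Both groups had been given the hepatotoxin CCl4 into the peritoneum in 2 injections each week for 6 weeks, and each had 3 libraries. There was no group without CCl4 among the samples used. The promoter that drives the recombinase, the ages of the mice and the way the LSECs were isolated are not stated in the labels. Nor is it stated whether the 3 libraries of a group are from different mice, so every p-value here reflects only library-to-library spread, which may be technical.

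A Rab protein cycles between a GDP-bound form held in the cytosol by a GDP dissociation inhibitor and a GTP-bound form on a membrane. Exchange factors (GEFs) load GTP, GTPase-activating proteins (GAPs) end the active state, and effectors such as tethers and motors read it. Rab5 proteins organise the early endosome, while Rab22a and its closest relative Rab31 act at early and sorting endosomes and at the recycling routes that leave them. LSECs are among the most endocytic cells of the body, and clear waste macromolecules from blood through scavenger receptors.

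The coding sequences of the relatives were compared first, because near-identical copies could share reads. The coding parts of their longest coding transcripts in GENCODE M21 were aligned. Over the aligned bases, 556 to 568 per pair with gaps left out, Rab22a was 70.95% identical to Rab31, 66.01% to Rab5a, 65.49% to Rab5c and 63.28% to Rab5b. The coding sequence is 582 of the 7155 bases of the Rab22a transcript, and the untranslated rest was not compared. Within the coding sequences, the longest run of bases that Rab22a had in common with any of these 4 genes was 14 bases, with Rab5a.

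Rab22a starts back to back with the pseudogene Ppp4r1l-ps, which lies on the other strand, and 119 bases separate their annotated starts. That gap and the same length before the annotated start of Rab31 are printed because the results below set Rab22a against both genes. They are on GRCm38.p6, from the RefSeq promoter table, with GGGCGG on either strand (a GC box, the core of the site of Sp-family factors) in capitals.
Rab22a, chr2:173659641-173659759, plus strand: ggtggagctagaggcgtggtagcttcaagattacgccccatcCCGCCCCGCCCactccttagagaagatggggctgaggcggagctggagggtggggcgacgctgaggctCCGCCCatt
Rab31, chr17:65772753-65772871, minus strand: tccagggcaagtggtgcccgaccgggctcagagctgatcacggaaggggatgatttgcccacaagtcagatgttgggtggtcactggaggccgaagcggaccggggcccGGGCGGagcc
The motif was present 3 times before Rab22a and 1 time before Rab31, and the equal windows of Rab5a, Rab5b and Rab5c held 1, 2 and 0. In the table's 300-base windows, GGGCGG was present in 68.3% of the 60 windows of Rab genes, which belong to 48 of the 59 genes, against 35.7% of all 32851 windows. In these longer windows all 5 relatives had it, Rab5c included. The motif CAGAC, a core of SMAD binding, was in 48.3% of the Rab windows and 49.6% of all, on either strand, and among the 5 relatives only in those of Rab5b and Rab5c. ACGTG, the core of hypoxia and E-box sites, was in 21.7% and 19.6%, and among the relatives in those of Rab31 and Rab5a. A match describes these letters and shows no binding.

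Library totals ranged from 17171850 to 25062755 counts, and a count of 0 in 1 library allows up to 3 counts, or 0.124 to 0.1997 CPM, for counting error only. CPM is the count scaled to the library's total by TMM. The 12 LSEC markers summed to between 25532 and 30105 CPM in f/f and between 27372 and 32961 CPM in the libraries labelled ECKO. Of the 12, 1 was higher by the test below, which called 1.24% of all tested genes higher. Some other cell types moved with the groups. The 12 stellate cell markers summed to between 1482 and 2463 CPM in f/f and between 565 and 840 CPM in ECKO. Of these 12, 7 were lower by the test below, which called 2.79% of all tested genes lower. The 6 cholangiocyte markers summed to between 214 and 603 CPM against between 140 and 189 CPM, with 0 called. Of 7 tested B and plasma cell markers, 4 were lower. The 8 monocyte and neutrophil markers summed to between 31.8 and 93.9 CPM against between 12.96 and 18.7 CPM, with 1 of 6 tested lower. Sums overlapped between the groups for hepatocytes, at 967 to 1599 CPM in f/f and 877 to 1739 CPM in ECKO. Of the 10 hepatocyte markers 1 was lower, and their median log2 fold change was 0.55. Kupffer cell sums overlapped too, at 54.0 to 108 CPM and 67.6 to 94.8 CPM. So did those of T and NK cells and of platelet and erythroid cells, with 1 of 5 tested platelet and erythroid markers higher. Mitochondrial transcripts took 11.5% to 23.5% of the counts in f/f and 19.7% to 32.4% in ECKO. In bulk RNA, fewer cells of a type and less RNA per cell cannot be told apart, and the part of these shifts in the results below was not tested. Tgfbr2 itself was at 387, 442 and 452 CPM in f/f and 498, 487 and 511 CPM in the libraries labelled ECKO (log2 fold change 0.22, SE 0.10, edgeR adjusted p = 0.228). Gene-level counts can include transcript from outside a deleted part, so they do not check the deletion, and every direction below is between libraries as labelled.

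Rab22a, which regulates traffic from early endosomes to recycling tubules, was the Rab gene with the largest difference. Its counts were 400, 318 and 404 in f/f and 1325, 1409 and 1569 in ECKO. Scaled to library size, these were 16.7, 15.6 and 16.7 CPM in f/f and 88.2, 81.9 and 89.97 CPM in ECKO. All 3 libraries labelled ECKO were high, with little spread within either group, and the lowest of them was 4.89 times the highest f/f library. The means were 16.4 ± 0.639 CPM (SD, n = 3) and 86.7 ± 4.26 CPM (SD, n = 3), a log2 fold change of 2.40 (SE 0.10), or 5.29-fold. The gene (ENSMUSG00000027519) spans chromosome 2, 173659760 to 173707343 on the plus strand of mm10/GRCm38. Among the 12803 tested genes that averaged at least 1 CPM, it stood at rank 20 by log2 fold change, highest first. In 14 of those genes, Rab22a included, the lowest ECKO library stood at least that many times above the highest f/f library.

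The close relatives did not show a difference of that size. Rab31 was at 122, 114 and 114 CPM in f/f and 97.3, 105 and 115 CPM in ECKO. The ranges overlapped, with a log2 fold change of -0.14 (SE 0.10). Rab5a, the form of Rab5 most studied in endosome fusion, was at 75.3, 76.2 and 70.3 CPM in f/f and 76.7, 68.8 and 74.2 CPM in ECKO. Its libraries interleaved, and its log2 fold change was -0.01 (SE 0.09). Rab5b was at 89.7, 100.5 and 91.6 CPM against 113, 99.6 and 105 CPM, a log2 fold change of 0.17 (SE 0.10) with overlapping libraries. Rab5c, the most abundant of the 5, was at 291, 264 and 264 CPM against 284, 324 and 309 CPM, a log2 fold change of 0.16 (SE 0.10), also with overlap. With scaling by total count alone, the signs for Rab5b and Rab5c turned to the other side of 0, while that scaling put the median of all tested genes at -0.22. Each of the 2 genes kept its sign in 12 of 16 alternatives. Mean deposited FPKM was lower in ECKO for both, at 32.4 and 30.7 for Rab5b and 77.7 and 74.3 for Rab5c. No difference between Rab22a and a relative was tested, since the values chose the gene.

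**Figure D1:**
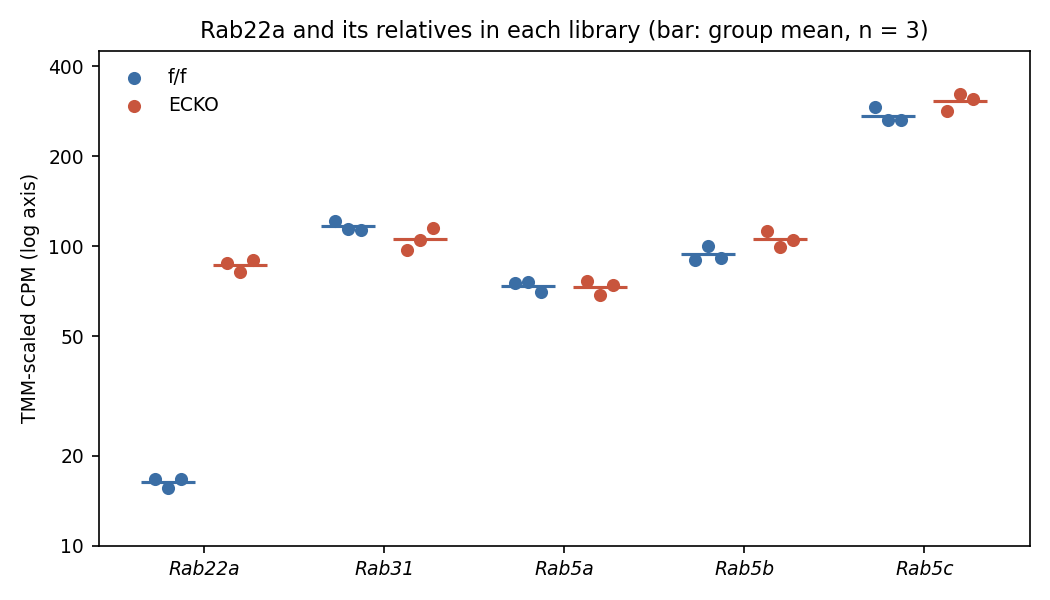
TMM-scaled CPM on a log axis for Rab22a and its 4 relatives, with 1 point for each of the 3 libraries of each group and a bar at the group mean. Rab22a stands between 15.6 and 16.7 CPM in f/f and between 81.9 and 89.97 CPM in the libraries labelled ECKO, whereas the points of each relative overlap between groups.

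Levels of different genes can be compared only per length. In the FPKM values that the authors deposited, Rab22a was at 1.14, 1.29 and 1.38 in f/f and 5.24, 5.85 and 5.99 in ECKO. Its share of the FPKM sum of the 5 relatives was 0.697 ± 0.0366% (SD, n = 3) in f/f and 3.41 ± 0.176% (SD, n = 3) in ECKO, so it stayed the least abundant of the 5. The FPKM ratio of Rab22a to Rab31 was 0.0348 ± 0.00147 (SD, n = 3) in f/f and 0.204 ± 0.0179 (SD, n = 3) in ECKO. The gene length behind the deposited FPKM was 14026 bases for Rab22a, 1.96 times the 7155 bases of its longest coding transcript in GENCODE M21. For Rab31 the 2 lengths were 3476 and 3473 bases. Per kb of that coding transcript, Rab22a was at 2.29 ± 0.0894 CPM per kb (SD, n = 3) in f/f and 12.1 ± 0.596 CPM per kb (SD, n = 3) in ECKO. Its share of the 5 relatives on that scale was 0.972% and 4.63%, and its ratio to Rab31 was 0.0681 and 0.3996. The choice of length thus moved the level of Rab22a against its relatives.

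Across the family, Rab22a stood at rank 38 of the 59 genes in f/f by either scale. In ECKO it stood at rank 27 by CPM per kb and rank 28 by FPKM. The highest levels per kb in f/f were those of Rab5c at 139 ± 8.07, Rab7 of late endosomes at 106 ± 26.4, and the secretory pathway members Rab1a at 72.7, Rab1b at 71.8 ± 2.07 and Rab2a at 64.2 ± 4.53 CPM per kb (SD, n = 3). Rab1a and Rab1b did not differ beyond their spread, and their order turned when FPKM was used, where Rab1b led the family. The 10 most abundant genes held 60.2% of the family's CPM per kb in f/f and 63.3% in ECKO. The 2 length scales differ widely for other members as well: the deposited length was over 1.5 times the coding transcript for 30 of 58 Rab genes, with a range from 0.346 to 5.96 times. The summed level of all Rab genes was 2823 ± 122 CPM (SD, n = 3) in f/f and 3103 ± 111 CPM (SD, n = 3) in ECKO. Without Rab22a it was 2806 ± 122 and 3017 ± 114 CPM, so Rab22a held a small share of the family's counts in both groups.

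**Figure D2:**
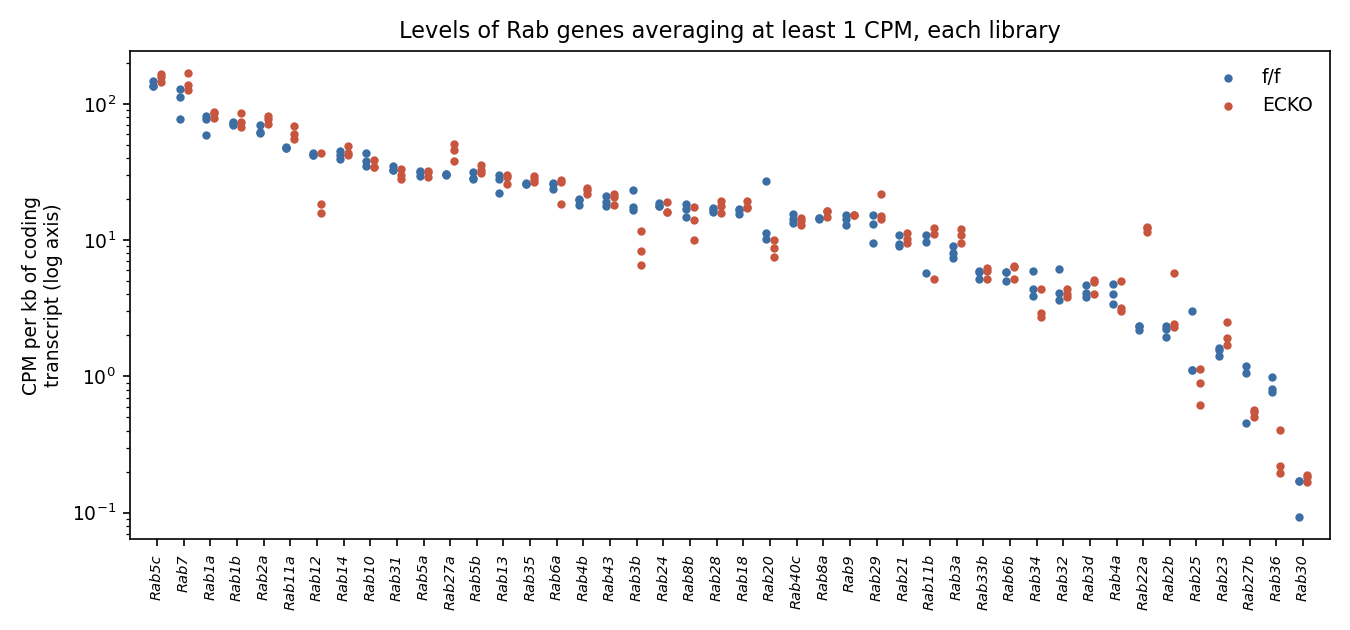
CPM per kb of the longest coding transcript, on a log axis, for Rab genes averaging at least 1 CPM, with 1 point per library and genes ordered by their f/f mean. Rab5c leads the order at 139 CPM per kb, and Rab22a moves from 2.29 to 12.1 CPM per kb, while Rab12, Rab20 and Rab2b each have 1 library or more away from the rest of their group.

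Over all 48 tested Rab genes, 2 were called higher (Rab22a and Rab27a) and 1 lower (Rab3b) at an adjusted p below 0.05 in edgeR's quasi-likelihood test. Over all 13692 tested genes, 4.03% were called, 1.24% higher and 2.79% lower. The selection of Rab22a on these counts had already fixed its call, so nothing is read from the count of 3. The libraries of the 2 groups did not overlap for 13 of the 48 Rab genes, 10 above and 3 below, against 30.9% of all tested genes, 15.7% above and 15.2% below. The median log2 fold change was 0.08 over the Rab genes and 0.01 over all tested genes. A log2 fold change within 0.5 of 0 was found for 36 Rab genes, or 75%, against 77.2% of all tested genes. Most of the 48 genes thus had small differences, on either side of 0.

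**Figure D3:**
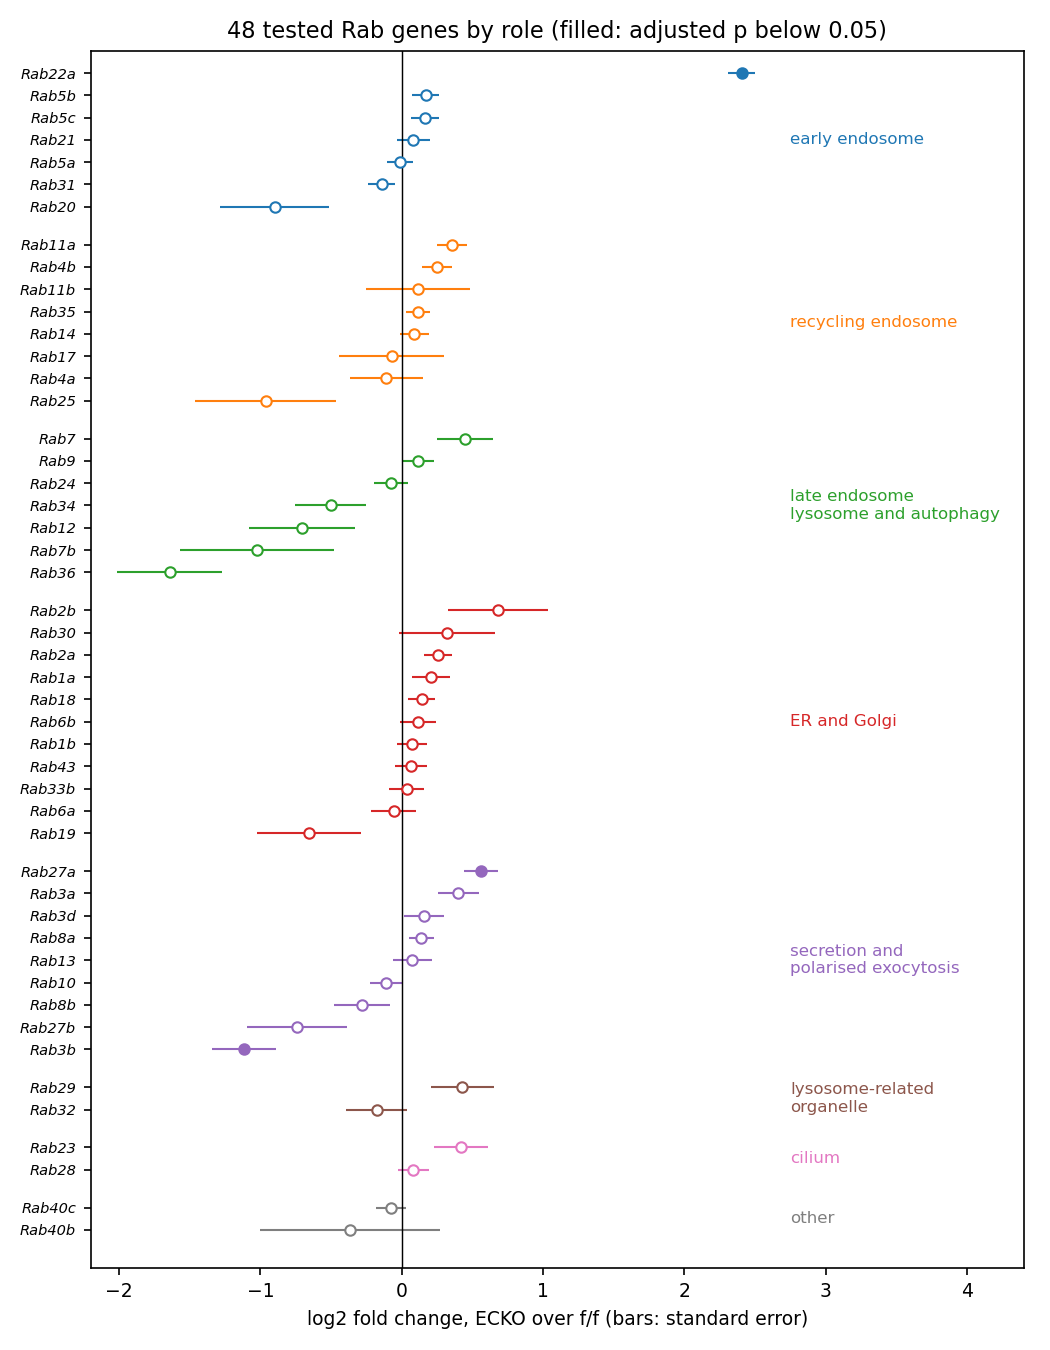
Log2 fold change of ECKO over f/f for the 48 tested Rab genes by role, with bars for the standard error and filled points for an adjusted p below 0.05 in edgeR. Most points lie within 0.5 of 0, Rab22a stands at 2.40, and the lowest are Rab36 at -1.64 and Rab3b at -1.12.

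All 7 early endosome genes were tested, with a median log2 fold change of 0.08. Beside Rab22a and the 4 relatives these are Rab21 and Rab20. Rab21, which escorts integrins in endocytosis, went from 44.9 ± 4.42 to 47.6 ± 4.37 CPM (SD, n = 3), a log2 fold change of 0.08 (SE 0.12). Rab20, a hypoxia-inducible Rab of phagosomes and endosomes, was at 38.0, 14.3 and 15.7 CPM in f/f and 10.5, 13.9 and 12.2 CPM in ECKO. Only f/f replicate 1 was high, and the log2 fold change of -0.90 (SE 0.39) was -0.29 without that library. An antisense gene that overlaps Rab20, E230013L22Rik, averaged 11.6 CPM in f/f and 5.07 CPM in ECKO, and reads of such a pair cannot be told apart where the strand setting of the counting is not stated. In all, 19 Rab genes overlap another listed gene.

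Of 9 recycling endosome genes, 8 were tested, with a median log2 fold change of 0.10. Rab11a, the central Rab of the recycling endosome, was at 111, 111 and 113 CPM in f/f and 128, 159 and 141 CPM in ECKO. Its ECKO libraries all lay above the f/f libraries, with a log2 fold change of 0.35 (SE 0.11), and it was not called. Rab35 and Rab4b, of the fast recycling route, had log2 fold changes of 0.12 (SE 0.09) and 0.25 (SE 0.10), also with ECKO above. Over the 16 alternatives these ran from -0.12 to 0.16 and from 0.01 to 0.30. Rab11b was at 59.2, 34.9 and 66.8 CPM in f/f and 31.4, 75.5 and 67.5 CPM in ECKO, so 1 library of each group was low. The listed copy Rab11b-ps2 was at 32.6 to 35.8 CPM in every library, and how the counting divided reads between the copies is not known. Rab25, an epithelial relative of Rab11a, was at 1.21, 3.24 and 1.20 CPM in f/f and 0.666, 1.22 and 0.975 CPM in ECKO. Its log2 fold change of -0.96 (SE 0.50) was -0.34 without f/f replicate 2, the f/f library in which the cholangiocyte markers also summed highest, to 603 CPM. Among the f/f libraries, that library also had the highest Kupffer cell, monocyte and neutrophil, T and NK cell, and platelet and erythroid sums. The LSEC, stellate cell, hepatocyte, and B and plasma cell sums were highest in another f/f library. The part of RNA from any of these cells in the Rab25 value was not tested.

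The genes of late endosomes, lysosomes and autophagy had the lowest group median, -0.50 over 7 tested of 8, with values on both sides of 0. None of the 3 called Rab genes was among them, and the groups did not overlap for 1 of the 7. Among all tested genes 4.03% were called, and the groups did not overlap for 30.9%. Rab9, which returns receptors from late endosomes to the Golgi, was at 0.12 (SE 0.11), Rab24 of autophagy at -0.08 (SE 0.12), and Rab7b, at 1.20 CPM in f/f and 0.578 CPM in ECKO, at -1.03 (SE 0.55). Rab7, which drives fusion of late endosomes with lysosomes, was at 279, 241 and 167 CPM in f/f and 274, 364 and 297 CPM in ECKO. The groups overlapped through f/f replicate 1, and the log2 fold change was 0.45 (SE 0.20). Rab36, a Golgi-associated Rab that positions late endosomes and lysosomes, was at 2.01, 2.60 and 2.11 CPM in f/f and 1.07, 0.581 and 0.516 CPM in ECKO. All its ECKO libraries were below all f/f libraries, on 9 to 53 counts per library, and its log2 fold change was -1.64 (SE 0.37). It was not called, but was called lower in 3 of the 14 alternatives that gave it a value, total count scaling, no filter on low counts and DESeq2. Rab34, its closest relative, had a log2 fold change of -0.50 (SE 0.25).

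Rab12, which sends recycling cargo on to lysosomes and autophagy, split the ECKO libraries. It was at 84.1, 87.1 and 84.9 CPM in f/f, and at 88.3 CPM in ECKO replicate 1 but 37.2 and 31.7 CPM in replicates 2 and 3. The f/f libraries were close together and 1 ECKO library stood with them. The log2 fold change was -0.71 (SE 0.37) over all libraries and -1.30 without ECKO replicate 1, and the call was made only in that second case. In all, 8 of the Rab genes averaging at least 1 CPM had a highest library at least 1.8 times the lowest in at least 1 of the groups: Rab20, Rab2b, Rab30, Rab12, Rab36, Rab11b, Rab25 and Rab27b.

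Of 12 genes of the endoplasmic reticulum and Golgi, 11 were tested, with a median log2 fold change of 0.11. Rab1b, which tethers vesicles on the way from the endoplasmic reticulum to the Golgi, was at 141, 139 and 133 CPM in f/f and 130, 163 and 141 CPM in ECKO. The libraries overlapped, with a log2 fold change of 0.07 (SE 0.11). Rab2a of Golgi traffic, at 0.26 (SE 0.10), and Rab18 of lipid droplets, at 0.14 (SE 0.09), had ECKO libraries above f/f and were not called. Their log2 fold changes ran from 0.01 to 0.31 and from -0.10 to 0.18 over the 16 alternatives. Rab2b was at 6.48, 5.65 and 6.83 CPM in f/f and 6.66, 7.09 and 16.6 CPM in ECKO. Its log2 fold change of 0.68 (SE 0.36) was 0.13 without ECKO replicate 3, the single high library.

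Of 13 genes of secretion and polarised exocytosis, 9 were tested, and these held the other 2 called genes. Among all tested genes 4.03% were called, and nothing is read from the count of 2. Rab27a, which docks lysosome-related granules and in endothelium sits on the von Willebrand factor granules, was at 95.4, 97.3 and 96.0 CPM in f/f and 145, 161 and 121 CPM in ECKO. All ECKO libraries were above, with means of 96.2 ± 0.964 and 142 ± 20.5 CPM (SD, n = 3) and a log2 fold change of 0.56 (SE 0.12). Leaving out any 1 library ended the call, with log2 fold changes between 0.47 and 0.68, and so did total count scaling, at 0.33, and FPKM, at 0.30 to 0.31. Its paralog Rab27b went the other way in part, at 3.14, 8.25 and 7.29 CPM in f/f and 3.46, 3.78 and 3.90 CPM in ECKO. Only f/f replicate 1 was at the ECKO level, and the log2 fold change of -0.74 (SE 0.35), not called, was -1.05 and called without that library.

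Rab3b, a Rab of regulated exocytosis, was at 55.2, 78.1 and 57.7 CPM in f/f and 21.8, 38.7 and 27.5 CPM in ECKO. No ECKO library reached the f/f libraries, and the means were 63.7 ± 12.5 and 29.3 ± 8.58 CPM (SD, n = 3), a log2 fold change of -1.12 (SE 0.23). The call held without f/f replicate 1 and without ECKO replicate 2, and ended without each of the other 4 libraries, with log2 fold changes of -0.94 to -1.36 over the 6 fits. The other Rab3 genes tested lay above 0, Rab3a at 0.40 (SE 0.14) and Rab3d at 0.16 (SE 0.14), and were not called. Rab10, of exocytic and basement membrane transport, was at 152, 122 and 133 CPM in f/f and 120, 120 and 136 CPM in ECKO, a log2 fold change of -0.11 (SE 0.11).

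The remaining groups are small. Rab29, which works at the Golgi and on stressed lysosomes, went from 15.5 ± 3.54 to 20.9 ± 5.01 CPM (SD, n = 3), with ECKO replicate 1 the highest at 26.6 CPM. Rab28 of cilia went from 28.3 ± 0.990 to 29.98 ± 2.94 CPM (SD, n = 3). Rab23, a ciliary regulator of Hedgehog signalling, had ECKO libraries above f/f, at 8.32, 10.9 and 7.40 CPM against 6.73, 6.14 and 7.04 CPM, and was not called. Rab40c, which recruits a ubiquitin ligase, went from 36.2 ± 2.86 to 34.3 ± 1.92 CPM (SD, n = 3). The 11 genes too low to test were Rab33a, Rab9b, Rab38, Rab42, Rab39, Rab39b, Rab15, Rab44, Rab37, Rab26 and Rab3c. Rab44 reached the highest single count of these, 28, and Rab3c was at 0 in all 6 libraries.

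The genes around Rab22a were examined next. Within 1 Mb on either side, 34 genes are listed and 15 were tested, and their log2 fold changes ran from -1.19 to 1.16. The pseudogene Ppp4r1l-ps, which shares the 119-base gap printed above, was at 18.2, 19.9 and 18.9 CPM in f/f and 16.6, 9.41 and 11.7 CPM in ECKO. All ECKO libraries were below f/f, the opposite side from Rab22a, with means of 19.0 ± 0.836 and 12.6 ± 3.70 CPM (SD, n = 3), and the difference did not pass the test (log2 fold change -0.60, SE 0.20, edgeR adjusted p = 0.136). Vapb, an endoplasmic reticulum tether 30.2 kb downstream, averaged 109 ± 4.59 and 110 ± 0.720 CPM (SD, n = 3), a log2 fold change of 0.01 (SE 0.09, edgeR adjusted p = 0.957). The 2 outermost values belonged to genes with uneven libraries, Zbp1 at 27.4 CPM in f/f replicate 1 and at most 6.94 CPM in the other 5, and Pck1 with a range of 34.5 to 272 CPM over the 6. The groups did not overlap for 5 of the 15, against 30.9% of all tested genes. In edgeR 0 of the 15 were called and 1 was at an unadjusted p below 0.05. DESeq2, which called 11% of all tested genes, and limma-voom, which called 2.24%, also called 0 of these 15, with 2 each at an unadjusted p below 0.05.

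**Figure D4:**
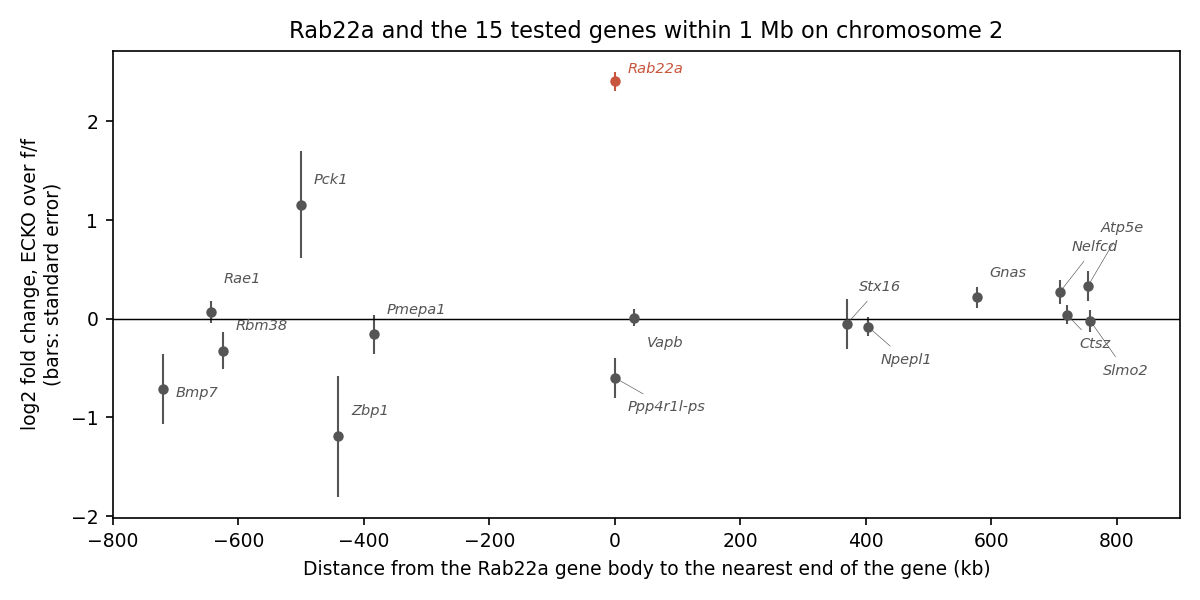
Log2 fold change of ECKO over f/f, with bars for the standard error, for Rab22a and the 15 tested genes within 1 Mb, against the distance in kb from Rab22a. Rab22a stands at 2.40, its head-to-head neighbour Ppp4r1l-ps at -0.60 and Vapb, 30.2 kb away, at 0.01.

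The proteins that load, switch and read the Rab GTPases were taken as a list of 147 genes by role, 146 of them in the table and 140 tested. Of these, 3 were called higher and 2 lower, against 4.03% of all tested genes called, with a median log2 fold change of 0.04. The libraries did not overlap for 54 of the 140, against 30.9% of all tested genes. Both called GEFs act on the Rab5 branch. Rin3, an exchange factor for Rab5 and Rab31, was at 90.7, 82.1 and 112 CPM in f/f and 162, 238 and 149 CPM in ECKO. Each ECKO library was above each f/f library, with means of 95.0 ± 15.5 and 183 ± 48.3 CPM (SD, n = 3), a log2 fold change of 0.95 (SE 0.20) and an edgeR adjusted p = 0.0484. Als2cl, a Rab5-binding protein listed with the exchange factors, rose from 112 ± 11.6 to 175 ± 24.1 CPM (SD, n = 3; log2 fold change 0.65, SE 0.13, edgeR adjusted p = 0.0411). Rabgef1, the exchange factor of Rab5, Rab21 and Rab22 known as Rabex-5, had a log2 fold change of 0.03 (SE 0.16, edgeR adjusted p = 0.924). Gapvd1, another exchange factor for Rab5 and Rab31, had one of 0.06 (SE 0.11, edgeR adjusted p = 0.789). The 35 tested GEFs had a median of 0.05 and the 36 tested GAPs one of 0.03.

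Most differences in the shared machinery were small. Over the 8 genes of prenylation and membrane delivery, log2 fold changes ran from -0.15 to 0.37, and the most abundant, the GDP dissociation inhibitor Gdi2, averaged 350 ± 26.9 and 360 ± 4.42 CPM (SD, n = 3). Among the 15 early endosome effectors the median was -0.06, and none of the tethers and adaptors named here passed the test. The groups did not overlap for 7 of the 15, 5 above and 2 below, against 30.9% of all tested genes. Eea1, the tether that binds Rab5 and Rab22, went from 80.8 ± 11.6 to 66.4 ± 17.8 CPM (SD, n = 3; log2 fold change -0.28, SE 0.21, edgeR adjusted p = 0.449). Rbsn, which encodes the Rab22 and Rab5 effector rabenosyn-5, went from 51.3 ± 1.795 to 58.7 ± 8.45 CPM (SD, n = 3; 0.19, SE 0.12, edgeR adjusted p = 0.365). Rabep1, a Rab5 and Rab4 effector, was lowest of the 15 at -0.59 (SE 0.19, edgeR adjusted p = 0.124).

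Both lower genes were effectors of recycling endosomes, 2 of 13 tested, against 2.79% of all tested genes called lower. Myo5b, the myosin motor that binds Rab11, was at 6.40, 8.30 and 6.79 CPM in f/f and 1.60, 1.98 and 2.35 CPM in ECKO. The groups were well apart, and the log2 fold change was -1.85 (SE 0.23, edgeR adjusted p = 0.0120). Rab11fip5, a Rab11-family interacting protein, fell from 5.62 ± 0.928 to 2.60 ± 0.379 CPM (SD, n = 3; log2 fold change -1.11, SE 0.24, edgeR adjusted p = 0.0469). Of the 13 tested genes of that role the median was -0.07. The cholangiocyte marker sum was lower as well, at 214, 603 and 344 CPM in f/f and 140, 180 and 189 CPM in ECKO, with 0 of 6 markers called. The stellate cell, monocyte and neutrophil, and B and plasma cell sums were also lower in every ECKO library than in every f/f library. The part of any of these cell types in Myo5b and Rab11fip5 was not tested. Plekhm1, an effector that joins Rab7 to the lysosomal tethering complex, rose from 45.5 ± 0.424 to 60.1 ± 2.32 CPM (SD, n = 3; log2 fold change 0.40, SE 0.09, edgeR adjusted p = 0.0469). The 14 effectors of late endosomes and lysosomes had a median of 0.18, and 1 of them, Plekhm1, was called, against 4.03% of all tested genes. For 9 of the 14 every ECKO library was above every f/f library, against 15.7% of all tested genes. The log2 fold changes of these 9 were 0.14 to 0.47. In the deposited FPKM, which put the median of all genes below 0, the groups overlapped for all 9. Mean FPKM was lower in ECKO for Rilpl1, Vps11, Vps16 and Vps33a, and higher for Rilp, Rilpl2, Plekhm1, Vps18 and Rabepk. On the CPM scale, groups did not overlap in other roles too, for 15 of 36 GAPs (6 above, 9 below) and 9 of 35 GEFs (7 above, 2 below). The same held for 5 of 10 secretory effectors (2 above, 3 below), 3 of 9 Golgi effectors, all above, and 4 of 13 recycling effectors, all below. Among all tested genes this was 30.9%, in either direction.

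With 1 library left out, the share of all genes called ran from 0.249% without ECKO replicate 1 to 7.22% without f/f replicate 1, against 4.03% with all 6. Myo5b passed without each library except ECKO replicate 1, where the edgeR adjusted p was 0.0592, and its log2 fold change stayed between -1.99 and -1.72. Rab11fip5 passed without f/f replicate 1 and lost its call without each of the other 5, at -1.23 to -0.99. Rin3, Als2cl and Plekhm1 lost theirs without any 1 of the 6, at edgeR adjusted p-values from 0.0542 to 0.173. Their log2 fold changes stayed between 0.71 and 1.09, between 0.56 and 0.76, and between 0.39 and 0.44. Over all 16 alternatives, which include other scalings and FPKM, the lowest values of Rin3, Als2cl and Plekhm1 were 0.65, 0.38 and 0.15. They were called in 3, 4 and 2 of those 16.

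**Figure D5:**
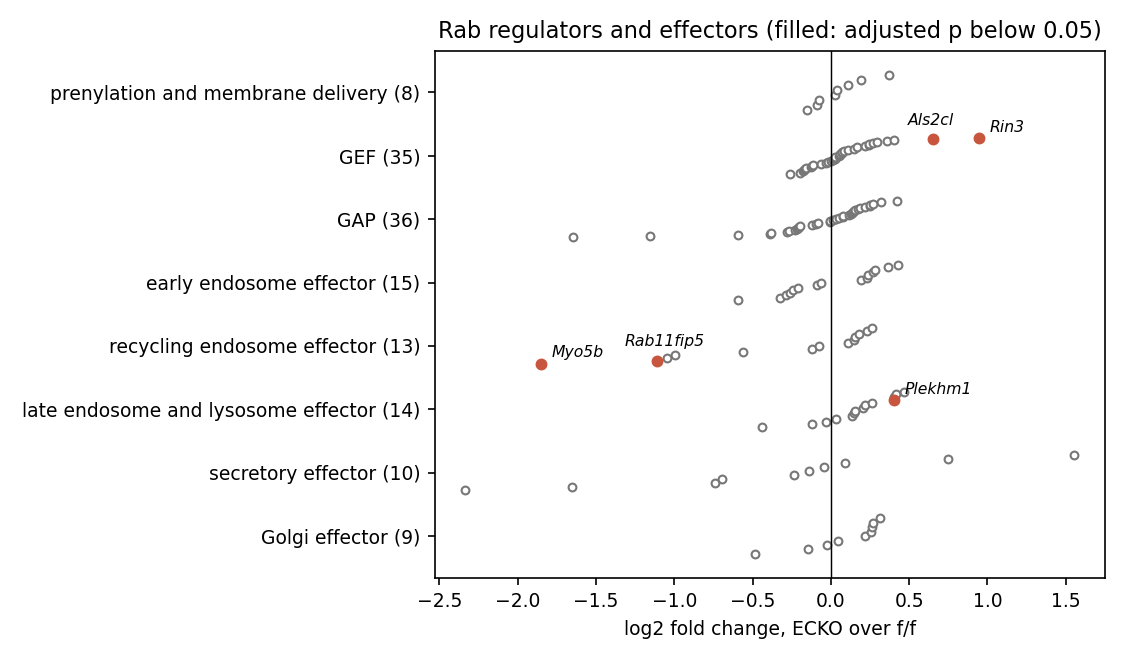
Log2 fold change of ECKO over f/f for the 140 tested regulators and effectors by role, with the number tested in parentheses and filled points for an adjusted p below 0.05 in edgeR. Rin3, Als2cl and Plekhm1 stand above 0, at 0.95, 0.65 and 0.40, and Myo5b and Rab11fip5 below it, at -1.85 and -1.11.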

How the data were processed

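Raw gene counts and FPKM values computed by the authors were deposited in 1 column of each kind per library, per the file headers. The submitters' processing notes name HISAT2 2.0.4, StringTie 1.3.0, mm10 and GRCm38.p4. Not given in the sources used here were the counter, strand setting and annotation release. There were 0 columns of per-sample values left out.

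Counts were analysed with edgeR 4.0.16 in R 4.3.3: filterByExpr (minimum count 10, minimum total 15), TMM scaling, the robust quasi-likelihood F-test with genotype as the only term, two-sided, Benjamini-Hochberg adjustment over all 13692 tested genes and a threshold of 0.05. SE is the absolute log2 fold change over the square root of F. The scripts were tested on simulated data. DESeq2 1.42.0 and limma 3.58.1 (voom, and trend on log2 FPKM plus 0.1 or 1) were alternatives. For a single value, the smallest p of an exact permutation test of 3 against 3 is 0.1. Coordinates are those of the table. CPM per kb was added after the data were seen, because the length behind the deposited FPKM differed from the coding transcript.

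The Rab genes, their roles and the lists of regulators and markers were chosen with earlier results of these data known. Per-library values were planned for Rab22a and its 4 relatives, called Rab genes, the 6 with the largest absolute log2 fold change averaging at least 1 CPM, and the gene with the highest FPKM in each role. Rab12, Rab2b, Rab11b, Rab23, Ppp4r1l-ps, Vapb, Zbp1 and Pck1, and the regulators named though not called, were chosen after their values were seen. Rmc1 was not analysed here.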

Additional observations from a re-analysis of the deposited data

How the results depend on the processing

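The log2 fold change of Rab22a ran from 1.56 (FPKM, pseudocount 1) to 2.45 over 16 alternatives, a description of the gene selected on it. No called gene changed direction under any of them. The count of called Rab genes, 3, was 1 with limma-voom and 1 with unfiltered FPKM, and ranged from 1 to 3 when single libraries were left out. The count of called regulators and effectors, 5, was 9 with total count scaling, 11 with DESeq2, 1 with limma-voom, 2 with FPKM and a pseudocount of 0.1 with or without the filter, and 1 with a pseudocount of 1. Of all genes, 9.29%, 11%, 2.24%, 4.38%, 1.27% and 4.06% were called in these fits, in that order, against 4.03% in the reported fit. Leaving out single libraries gave 0 to 4; the 0 was in edgeR without ECKO replicate 1, with 29 at an unadjusted p below 0.05, where 0.249% of all genes were called. Without f/f replicate 1, 7.22% of all genes were called. The median log2 fold change of the Rab genes, 0.08, was -0.15 with total count scaling, and -0.15, -0.13 and -0.16 with FPKM at a pseudocount of 0.1, of 1 and of 0.1 without the filter. These follow the median of all genes, which those settings put at -0.22, -0.19, -0.15 and -0.19. It ranged from 0.0656 to 0.1025 when single libraries were left out. With mitochondrial genes left out, an alternative chosen after seeing the data, 3 Rab genes and 4 regulators were called. Correlations of deviations from the group means were 0.10, 0.16 and -0.03 for same-numbered libraries, against -0.16 to 0.10 for differently numbered ones. Those of replicates 1 and 2 were the highest of all but small, and that of replicate 3 was below 0, so pairing is not settled. With the replicate number as a block, 2 Rab genes (Rab22a and Rab3b) and 1 regulator (Myo5b) were called, and the median log2 fold change of the Rab genes was 0.08. Among genes at a few CPM, such as Rab36 and Rab25, depth limits the precision of each value.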
